A study of Mus musculus with 2 samples.

Results

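The respiratory chain and the ATP synthase are the machinery of the inner mitochondrial membrane, and their nuclear genes were followed here at the level of promoter accessibility. Members were the protein-coding genes on chromosomes 1 to 19 and X of the mouse annotation GENCODE M21 (GRCm38, mm10) whose names start with Nduf, Uqcr, Atp5, Cox4, Cox5, Cox6, Cox7 or Cox8, together with Sdha, Sdhb, Sdhc, Sdhd, Cyc1 and Cycs. This gave 96 gene records of 21670, and the choice used names alone. Atp5o stands in the annotation under 2 identifiers, and both records were kept. Subunits that carry other names, and those encoded by mitochondrial DNA, were not analysed here.

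Complex I (NADH dehydrogenase) and complex II (succinate dehydrogenase) pass electrons to coenzyme Q. Complex III hands them on to cytochrome c and complex IV (cytochrome c oxidase) to oxygen, and the ATP synthase uses the proton gradient that complexes I, III and IV build. Neurons depend on this pathway for most of their ATP, and several subunits of complex IV exist as pairs of genes, one widely expressed and one known from muscle, testis or lung.

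Cerebellum of male B6CASTF1/J mice aged 4 days was assayed by DNase-seq in 2 libraries. B6CASTF1/J is a first-generation hybrid of a C57BL/6 and a CAST strain, and positions are on the C57BL/6-based assembly mm10. The labels name 3 males for each library, number the libraries as biological replicates 1 and 2 and give them the same donor entry. Both belong to 1 group with no treatment named, so no condition was compared and no test over samples was possible (n = 2 libraries throughout). Accessible DNA is cut by DNase I, runs of dense cutting were deposited as peaks, and short protected stretches as footprints.

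A gene was called open in a library when a window reaching 500 bp to each side of a protein-coding transcript start shared at least 1 bp with a peak of the less strict deposited list. Its promoter value was the signal of the strongest such peak in that library, in the authors' normalised units. At some members, among them Atp5d, Atp5j, Atp5l and Ndufa11, the strongest peaks of the libraries did not overlap. The deposited files give no read totals, so depth is unknown. The lists held 61896 peaks in replicate 1 and 131518 in replicate 2, with 112281 and 261301 footprints. Values moved in steps of 0.00645 (replicate 1) and 0.00665 (replicate 2). If 1 step stands for 1 cut, exact 95% Poisson intervals follow, which cover counting error only. In this bulk tissue a promoter open in few cells and one weakly open in many cannot be told apart.

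The labelled tissue was checked on marker genes. All 8 cerebellar genes (Atoh1, Neurod1, Zic1, En2, Calb1, Car8, Gad1 and Slc1a3) had a promoter peak in both libraries, against 58.9% of all protein-coding genes. Their median values of 0.813 and 0.978 lay below the 2.14 and 4.46 of all genes with a peak in both. Their median rank among those genes was at the percentile 10.2. With the stricter lists 4 of the 8 had a peak in both, near the 52.3% of all genes. None of 9 muscle genes had a peak in both libraries, and Tnni3 had the one muscle peak, at 1.04 in replicate 2. Of 8 male germ cell genes, Dazl had a peak in both (2.74 and 3.45), and of 8 genes of smooth muscle and mural cells, Myh11 and Kcnj8 did. Replicate 2 had a peak at 2 of the germ cell genes and at 6 of the 8 mural genes, against 65.0% of all genes.

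Most respiratory chain genes were open in both libraries. A promoter peak was present in both at 87 of the 96 members (90.6%), against 58.9% of all protein-coding genes. Replicate 1 had a peak at 89 members and 59.9% of all genes, and replicate 2 at 88 members and 65.0% of all genes. In neither library was there a peak at 6 members (6.25%), against 34.0% of all genes. With the stricter deposited lists 86 members were open in both, against 52.3% of all genes. Member promoters were also stronger than most. Among members open in both, promoter values ran from 0.568 to 6.95 with a median of 2.88 in replicate 1, and from 1.09 to 12.6 with a median of 6.35 in replicate 2. Over all genes open in both, the medians were 2.14 and 4.46. The median member stood at the percentile 69.9 of those genes, by the mean of its ranks in the libraries.

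The count varied with the CpG content of the promoters, the density of CG dinucleotides that marks most broadly used mouse promoters. All genes were divided into 10 classes of equal size by the number of CpGs in the window. In classes 6 to 10, 78 of 79 members were open in both libraries (98.7%), against 91.7% of all genes in those classes. The exception was Ndufa13. In classes 1 to 5, 9 of 17 members were open in both (52.9%), against 26.2% of all genes there. No member fell in the 2 classes poorest in CpG, of which the poorer had 2.54% of its genes open. These 2 classes lower the 26.2%, so it is not a matched share. Open in both were 1 of 2 members in class 3, 3 of 7 in class 4 and 5 of 8 in class 5. The shares of all genes in these classes were 17.6%, 33.8% and 68.0%. Members thus stood above all genes in classes 3 and 4 and below them in class 5, on few genes.

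**Figure D1:**
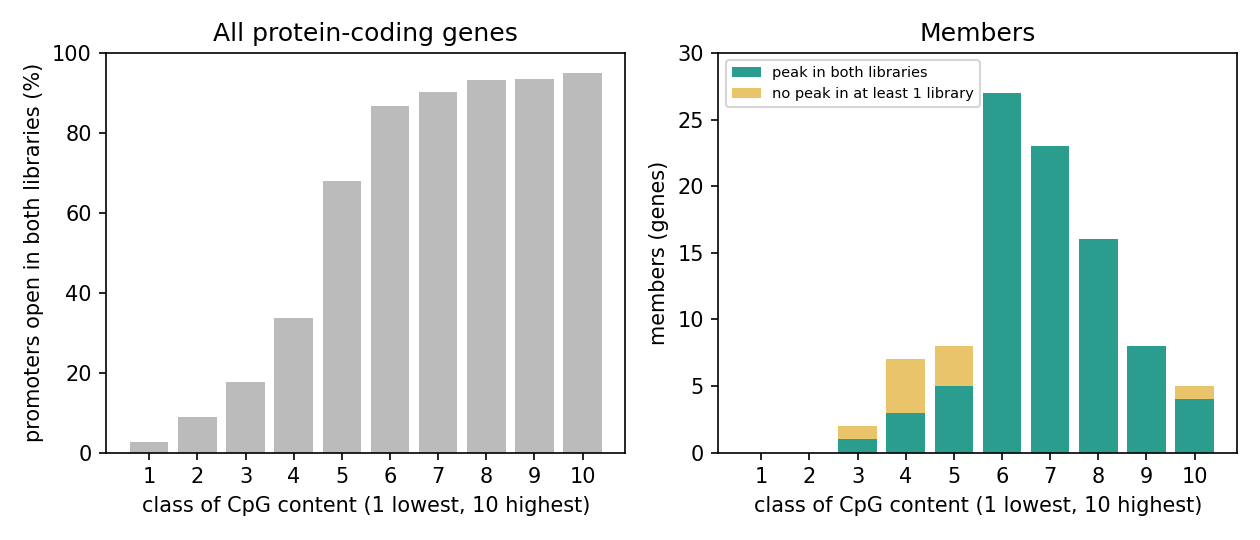
Left, share of all protein-coding genes open in both libraries (%), by class of CpG content from 1 (lowest) to 10 (highest). Right, number of members in each class, split by whether a promoter peak was present in both libraries. The share over all genes climbs from 2.54% in class 1 to 94.9% in class 10, and 8 of the 9 members that lack a peak in at least 1 library lie in classes 3 to 5.

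Genes of complex I, the entry point for electrons from NADH, were open almost throughout. Its 7 core subunits, which carry the redox centres, were all open in both libraries, with median values of 3.33 and 7.18. Ndufs1, the largest iron-sulfur subunit, was the strongest, at 4.01 in replicate 1 and 11.5 in replicate 2. Ndufs8, another iron-sulfur subunit, was last by mean rank, at 1.56 and 4.74, just below Ndufs3, at 2.03 and 3.61. Ndufv1, which binds NADH, had 3.33 and 8.79. Of the 29 accessory subunits 28 were open in both libraries, with medians of 3.23 and 6.59. Ndufc1 had the highest rank among them (6.95 and 9.49) and Ndufb11, encoded on the X chromosome, the lowest (1.01 and 1.83). With all peaks of the window summed, Ndufb11 had a mean of 3.50, above the 2.25 of Ndufa1, in place of 1.42. The 8 complex I assembly factors, which help to build the complex but are absent from the finished enzyme, were all open, with medians of 3.40 and 8.00. Ndufaf4 led them at 6.16 and 10.7, and Ndufaf1 was last at 1.18 and 2.96.

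Complex II, which also serves in the citric acid cycle, had all 4 of its genes open, and their values lay close together. The flavoprotein gene Sdha had 3.94 and 8.79, the iron-sulfur subunit Sdhb 2.65 and 7.92. The membrane anchors Sdhc and Sdhd had 2.77 and 5.93, and 3.25 and 5.71. Complex III, the cytochrome bc1 complex, was open at 9 of 9 genes, with medians of 2.54 and 5.46. The Rieske iron-sulfur protein gene Uqcrfs1 stood highest by rank, at 4.26 and 7.23. Cyc1, which encodes cytochrome c1, had 1.39 and 3.15, and Uqcrb, the lowest by rank, had 1.46 and 2.85. The electron carrier between complexes III and IV, cytochrome c, is encoded by Cycs in somatic cells. Its promoter had 4.98 in replicate 1 and 11.3 in replicate 2 (8.14 ± 4.48, SD, n = 2), at the percentile 93.5 of all genes open in both.

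Complex IV had the most members without a shared peak: 14 of 20 were open in both libraries, with medians of 2.02 and 4.35, below the medians of all open genes. Those without a shared peak were Cox4i2, Cox6a2, Cox7b2, Cox8b, Cox8c and Ndufa4l2, all tissue-restricted isoforms treated below. Every other complex IV gene was open in both libraries, and the medians include the restricted genes Cox7a1 and Cox6b2. Cox6a1 was the strongest by rank, at 5.35 and 11.5, and Cox6c had 6.21 and 8.83. Cox5a and Cox5b, accessory subunits on the matrix side, had 3.10 and 4.61, and 3.38 and 6.93. The ATP synthase was open at 16 of 18 records, with medians of 2.84 and 6.82. Of the catalytic head, Atp5b (subunit beta) had 3.97 and 12.1, Atp5a1 (subunit alpha) 1.94 and 3.66, and Atp5c1 (the central shaft, subunit gamma) 3.55 and 9.04. The weakest by rank among the open ones was Atp5l (subunit g of the membrane part), at 1.06 and 4.02, from peaks that did not overlap. With all peaks of the window summed, its mean was 5.07 in place of 2.54, above the 4.65 of Atp5a1. Subunit c, the proton-driven ring, comes from 3 genes that encode the same mature protein, and all were open. Atp5g2 was the strongest of these (5.48 and 12.6), Atp5g1 had 2.83 and 10.8, and Atp5g3 2.46 and 4.67. Taken at its 5'-most start alone, Atp5g2 had a mean of 1.86 in place of 9.06.

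**Figure D2:**
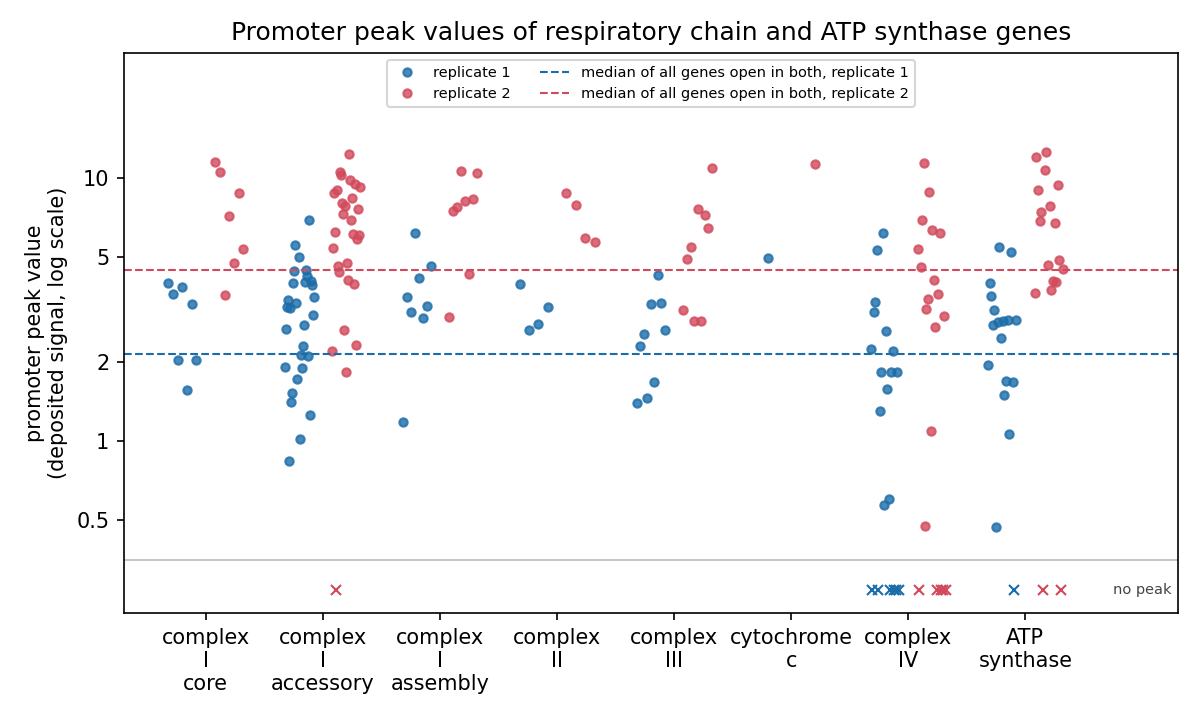
Promoter peak value (deposited signal, log axis) of each member by complex, with replicate 1 in blue and replicate 2 in red. Crosses at the bottom are members with no promoter peak in that library, and dashed lines are the medians of all genes open in both (2.14 and 4.46). Complex IV holds most of the crosses, and the lowest point is that of Atp5f1 of the ATP synthase in replicate 1, at 0.471.

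In the deposited units replicate 2 gave the higher values, and the size of the difference varied between members. All 87 members open in both had the higher value in replicate 2, as did 92.6% of all genes open in both, but 50 of the 87 did once each library was divided by its median promoter value. The median log2 difference, replicate 2 minus replicate 1, was 1.12 for members and 1.02 for all genes, so members shared the general offset between the libraries. Around it, members ranged from 0.20 to 2.42. Ndufa1, an accessory subunit on the X chromosome, differed least, with 1.91 and 2.19. Ndufc1 (log2 difference 0.45) and Cox6c (0.51) followed, and all 3 were lower in replicate 2 after that division. The largest differences were at Ndufb4, from 2.30 to 12.3 (log2 difference 2.42), Cox7b, from 0.600 to 2.71 (2.17), and Uqcrq, from 2.65 to 11.0 (2.05). The SD of any member includes this offset, and the rank of a member is free of a common factor.

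In male cells the X chromosome is present as 1 copy. The 3 X-linked members, Ndufa1, Ndufb11 and Cox7b, had medians of 1.01 and 2.19, and all X-linked genes open in both had 1.02 and 2.33. All autosomal genes open in both had 2.20 and 4.59. Singly, Cox7b had 0.600 and 2.71, Ndufb11 1.01 and 1.83 and Ndufa1 1.91 and 2.19, so the 3 genes lay on either side of the X-linked medians.

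Peaks of members sat close to their starts. The middle of the strongest promoter peak lay within 100 bp of a coding start at 85.1% of open members in replicate 1 and 87.4% in replicate 2, against 68.4% and 69.1% of all open genes. The median distance was 30 and 35 bp, against 58 bp in both libraries for all open genes. Peak width differed little, with medians of 200 bp for members and 220 bp for all genes in each library. Every member open in both libraries also had a footprint in its window in both, 87 of 87, against 95.8% of all open genes. Counted over all members the share was 90.6%, against 56.5% of all genes. Members had a median of 4 footprints in replicate 1 and 6 in replicate 2, the same as all open genes. Ndufs7, an iron-sulfur subunit of complex I, had the most (9 and 14), followed by Atp5g2 (9 and 13) and Atp5j (7 and 9). Of 326 footprints at members in replicate 1, 244 overlapped one of replicate 2 (74.8%, against 61.2% over all genes). Of 539 in replicate 2, 233 overlapped one of replicate 1 (43.2%, against 35.3%).

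Many members share their promoter region with a neighbour that is transcribed the other way. A protein-coding gene on the opposite strand started within 1000 bp upstream of a coding start at 31 of 96 members (32.3%), against 9.95% of all genes. Opposite-strand starts lying only downstream were not counted. All 31 were open in both libraries, which makes 35.6% of the open members, against 15.8% of all open genes. Ndufs1 starts 3 bp from Eef1b2 (a translation elongation factor), Ndufa7 10 bp from Rps28 (a ribosomal protein) and Sdha 29 bp from Ccdc127. Ndufa8 lies 52 bp from Morn5 and Ndufaf8 197 bp from Tepsin. Partners with mitochondrial roles were Timm8b, a protein import factor 98 bp from Sdhd, and Mrpl36, a mitochondrial ribosomal protein 51 bp from Ndufs6. Gabpa encodes the DNA-binding subunit of a factor known to regulate respiratory genes, and its annotated span overlaps that of Atp5j. The nearest Gabpa start upstream of an Atp5j start lay 686 bp away, and their windows share a peak of 3.75 in replicate 2. Such a peak cannot be assigned to either gene. Members with and without a divergent partner had like values, with medians of 3.01 and 6.47 against 2.79 and 6.30.

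Known regulators of respiratory genes include nuclear respiratory factor 1 (NRF1), the ETS family factor GABP and YY1, and their consensus letters were searched in member promoters. RefSeq promoter sequences (GRCm38.p6, 250 bases before to 50 after the start) were matched for 75 member genes with 80 promoters, and for 16426 genes with 20054 promoters in all. Both strands were searched. A match lay inside a footprint when it fell within the footprint extended by 5 bp on each side. CGCATGCG, the NRF1 sequence, was present in 12 of 80 member promoters (15.0%), against 2.61% of all promoters. Among promoters overlapping a peak in both libraries it was present in 15.6% of 77 for members and 4.70% of 10418 for all genes. In 8 member promoters the match lay inside a footprint of both libraries (10.4% of the open ones, against 3.13%). These 8 are shown because the letters and the protection coincide in each library. Each line is the gene strand, read 5' to 3' on mm10, with the match in capitals.
Ndufa8 (chr2:36049329-36049358, minus strand): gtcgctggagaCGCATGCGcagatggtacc
Ndufaf5 (chr2:140170652-140170681, plus strand): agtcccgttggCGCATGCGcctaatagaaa
Ndufaf4 (chr4:24897960-24897989, plus strand): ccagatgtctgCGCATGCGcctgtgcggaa
Cycs (chr6:50566612-50566641, minus strand): ccatgctagctCGCATGCGcgcgcacaaac
Atp5l (chr9:44920965-44920992, minus strand): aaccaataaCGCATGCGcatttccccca
Uqcrc1 (chr9:108936668-108936697, plus strand): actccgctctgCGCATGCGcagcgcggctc
Atp5g2 (chr15:102671070-102671099, minus strand): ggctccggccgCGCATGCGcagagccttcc
Ndufa11 (chr17:56717692-56717721, plus strand): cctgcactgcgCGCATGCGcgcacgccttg
The same letters stood from 241 bases upstream (Atp5l) to 31 bases downstream of the start (Uqcrc1), and in Cycs 61 bases upstream. The other 4 matches were in Cox6a1, Atp5k and Uqcr11, inside a footprint of replicate 2 alone, and in Atp5j, in neither library.

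CCGGAAG, the core of ETS factors including GABP, was present in 22.5% of member promoters against 11.9% of all, but among open promoters the shares were closer, 23.4% and 19.8%. A match inside a footprint of both libraries was found in 5 member promoters (6.49%, against 3.62% of all open promoters). These 5 are shown for the same reason as above, with the core or its reverse complement in capitals.
Ndufs3 (chr2:90904731-90904759, minus strand): cccgcgtccgcCCGGAAGaagagtcactg
Ndufaf1 (chr2:119662835-119662863, minus strand): cgggaccacaaCCGGAAGcgtggcgaacc
Uqcrh (chr4:116075063-116075091, minus strand): agtatgccgcaCTTCCGGccaggtcgccg
Sdhb (chr4:140961266-140961294, plus strand): gctcggagaaaCCGGAAGcggccttccac
Cox6a1 (chr5:115348957-115348985, minus strand): ccccatttccgCTTCCGGcgcgccggtgt
All 5 lay within 27 bases of the start, that of Ndufs3 being the farthest upstream. They include Sdhb of complex II and Uqcrh, the hinge protein of complex III. With footprints not extended, 1 open member promoter held a protected match in both libraries.

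AAGATGGC, the YY1 sequence, was present in 12.5% of member promoters (10 of 80), against 3.10% of all promoters, and in 13.0% against 4.99% of open ones. A footprint of both libraries covered the match in 1 member, Ndufs7 (1.30%, against 0.653%). All 10 matches were on the gene strand, and 9 lay 10 to 38 bases downstream of the start. In other genes 47.9% of 633 matches were downstream of the start, and 39.7% were downstream and on the gene strand. The letters include ATG, which was an annotated start codon in 8 of the 10 member matches, against 26.1% of those in other genes, a check added after the positions had been seen. The 5 matches that lay inside a footprint of at least 1 library are shown, with AAGATGGC in capitals.
Ndufc1 (chr3:51408915-51408944, minus strand): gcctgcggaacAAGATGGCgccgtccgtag
Ndufa9 (chr6:126849097-126849126, minus strand): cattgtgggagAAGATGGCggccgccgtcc
Ndufs7 (chr10:80249462-80249491, plus strand): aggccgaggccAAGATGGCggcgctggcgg
Ndufs4 (chr13:114388045-114388070, minus strand): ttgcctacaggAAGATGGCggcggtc
Ndufb8 (chr19:44555393-44555415, minus strand): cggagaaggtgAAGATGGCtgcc
Ndufs7 had the match protected in both libraries, which no member had with footprints not extended and 4 had with 10 bp. Ndufs4 and Ndufb8 had it protected in replicate 1 alone, and Ndufa9 and Ndufc1 in replicate 2 alone. The bases beyond the match differ between these genes.

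**Figure D3:**
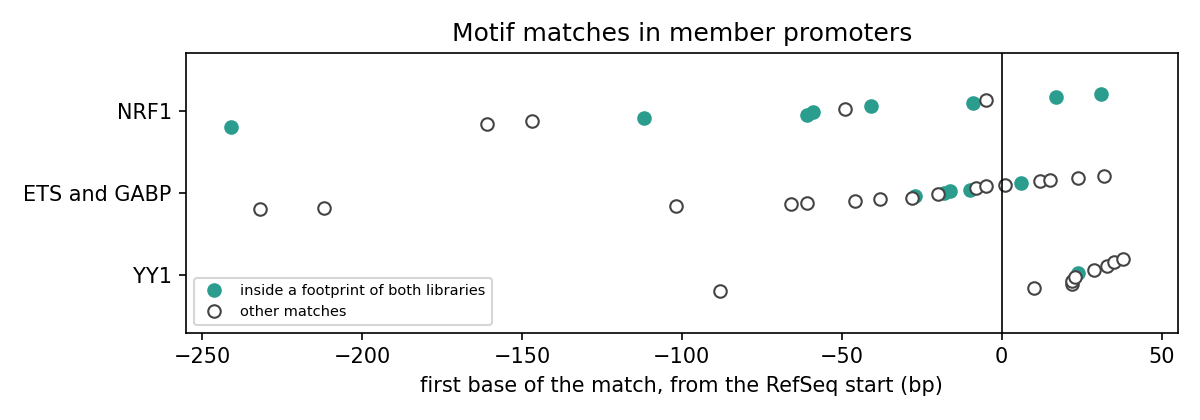
Position of each match in member promoters, as the distance of its first base from the RefSeq start in bp, for the NRF1, ETS and YY1 sequences. Filled points lie inside a footprint of both libraries, and all but 1 of the YY1 matches lie 10 to 38 bases downstream of the start.

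Another 9 sequences were searched in the same way. GGGCGG, of the SP and KLF factors and frequent in CpG-rich promoters, was less common in open member promoters than in all open ones, at 42.9% against 71.5%, and 18.2% against 32.2% inside a footprint of both libraries. AAGGTCA, bound by estrogen-related receptors, was present in 10.4% of open member promoters, against 2.31%. It was inside a footprint of both libraries in Atp5k and Atp5l. ACTACAA, of ZNF143, had 13.0% against 4.43% and no match in a footprint of both libraries. TGACGTCA, of CREB and ATF factors, had 6.49% against 3.77%, and 4 of its 5 members, Cycs, Ndufa10, Ndufb2 and Uqcrfs1, had it inside a footprint of both (2 promoters with footprints not extended). CCAAT of NF-Y had 42.9% against 39.3%, CACGTG 7.79% against 10.6%, and TATAAA 7.79% against 5.26%. The comparison sequences TGACTCA (AP-1) and CAGCTG (bHLH factors) had 6.49% against 2.58% and 6.49% against 14.5%. Matches of different sequences overlapped in 1 member, Ndufs3, where GGGCGG and CCGGAAG share bases. These shares depend on base composition and are descriptions of letters, and binding was not measured.

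**Figure D4:**
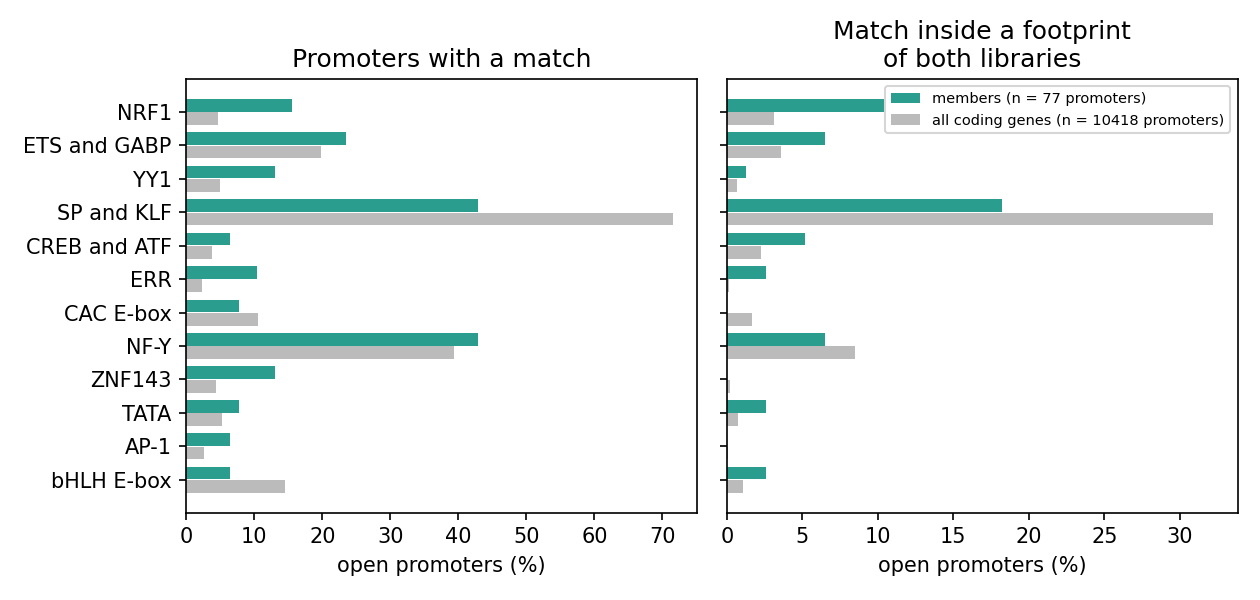
Share of open promoters (%) that hold each sequence (left) and that hold it inside a footprint of both libraries (right), for 77 member promoters (green) and 10418 promoters of all coding genes (grey). The NRF1 sequence stands at 15.6% against 4.70%, and the SP and KLF sequence at 42.9% against 71.5%.

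Upstream stretches of Cycs and Cox6a1 show how the protected bases lie in strong member promoters. Each is the part of the 250 bases before the RefSeq start that holds no annotated exon, read 5' to 3' on the gene strand of mm10. Capitals mark bases inside footprints of both libraries.
Cycs (chr6:50566570-50566642, minus strand): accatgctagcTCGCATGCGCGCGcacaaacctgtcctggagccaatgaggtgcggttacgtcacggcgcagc
Cox6a1 (chr5:115348982-115349129, minus strand): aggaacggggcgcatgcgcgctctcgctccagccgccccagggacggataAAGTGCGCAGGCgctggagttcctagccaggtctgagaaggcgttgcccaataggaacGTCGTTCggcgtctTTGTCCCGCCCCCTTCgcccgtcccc
In Cycs the protected run of 13 bases covers the NRF1 letters described above. In Cox6a1, 35 bases in 3 runs were protected in both libraries, and its NRF1 letters, near the 5' end of the stretch, were not among them.

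Widely expressed subunits and their tissue-restricted relatives differed within the members. Of 8 restricted genes, 2 were open in both libraries (25.0%), against 85 of the other 88 member records (96.6%) and 58.9% of all genes. All 8 restricted genes fell in CpG classes 3, 4 and 5, in which 17.6%, 33.8% and 68.0% of all genes were open in both. The 25.0% of the restricted genes lay above the share of class 3 and below those of classes 4 and 5. Over classes 1 to 5 the share of all genes was 26.2%. It includes classes 1 and 2, which held no restricted gene, so it is not a matched share. The stricter lists gave 1 restricted gene and a 2000 bp window 4. Cox4i1, the broadly expressed form of subunit 4, had 2.23 and 5.36, whereas Cox4i2, known from lung, had no promoter peak in either library. Cox8a had 2.20 and 6.20, and neither Cox8b (heart and skeletal muscle) nor Cox8c (testis) had a peak. Cox7b had 0.600 and 2.71, and Cox7b2 (testis) had none. Ndufa4, now assigned to complex IV, had 1.83 and 2.98, and its relative Ndufa4l2, known to respond to low oxygen, had none. A peak of 3.34 and 6.85 lay with its edge 1887 bp from the Ndufa4l2 start, outside the window. At these 5 closed genes no base of the window carried a cut rate with a false discovery rate under 0.05 in either library. Cox6a1 had 5.35 and 11.5, and its heart and muscle relative Cox6a2 had a peak in replicate 2 alone, at 0.472, so that Cox6a1 was 24.2-fold higher there. A peak of 0.742 and 1.90 lay with its edge 1924 and 1914 bp from the Cox6a2 start.

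Cox7a1 and Cox6b2 departed from this pattern. Cox7a2, the broadly expressed form, had 2.61 and 6.35, and Cox7a1, the heart and muscle form, had 0.568 (95% interval 0.455 to 0.699) and 1.09 (0.930 to 1.27). Cox7a2 was 4.60-fold and 5.82-fold higher than Cox7a1 in replicates 1 and 2, and Cox7a1 was the weakest open member of all by rank. It had no peak in the stricter list of replicate 1. Cox7a2l, a related protein that joins complexes III and IV, had 1.57 and 4.10. Cox6b2, the testis form, had 1.83 (1.63 to 2.06) and 3.46 (3.17 to 3.77). Its broadly expressed relative Cox6b1 had 1.30 (1.12 to 1.49) and 3.19 (2.91 to 3.49). Cox6b1 therefore stood at 0.708 and 0.921 times Cox6b2, and their intervals overlapped in replicate 2 and not in replicate 1. The germ cell genes Ddx4, Prm1, Tnp1, Ldhc, Pgk2 and Cyct, the testis form of cytochrome c, had no promoter peak in either library, Sycp3 had 0.359 in replicate 2 alone, and Dazl was open in both as given above. Beside Cox7a1, the muscle list had 0 of 9 genes open in replicate 1 and 1 of 9 in replicate 2. The nearest other coding start lay 7213 bp from the Cox6b2 peak (Kmt5c) and 8866 bp from that of Cox7a1 (Capns1).

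**Figure D5:**
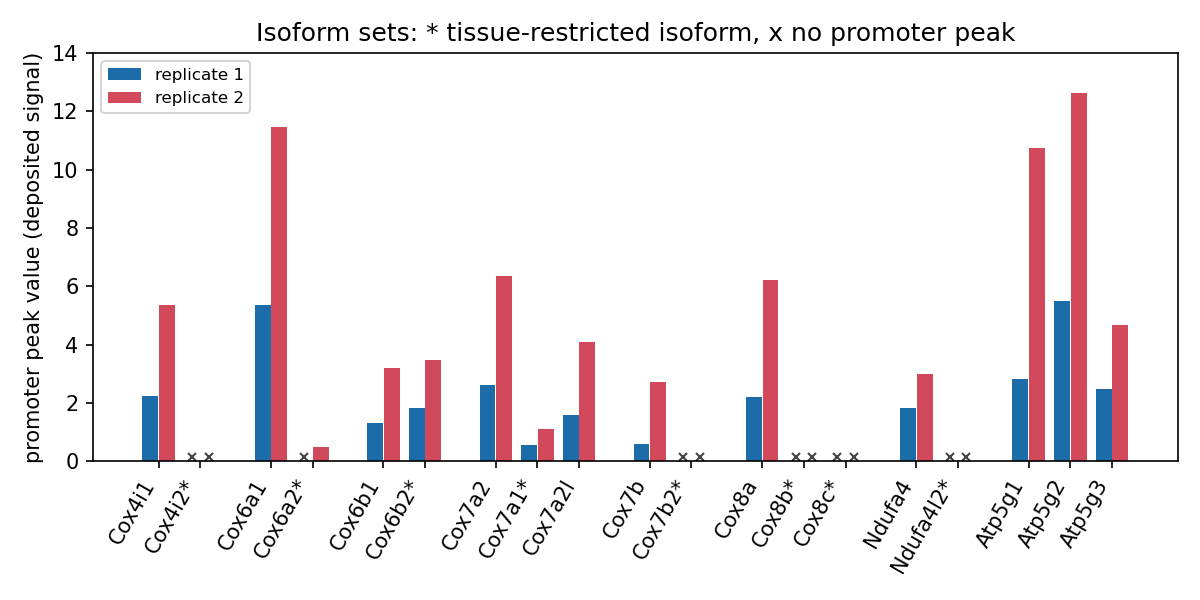
Promoter peak value (deposited signal) of each gene of the isoform sets, with replicate 1 in blue and replicate 2 in red. Asterisks mark tissue-restricted genes and crosses the absence of a promoter peak. Cox6b2 is the one restricted gene whose bars reach those of its broadly expressed relative.

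Sequences of a closed and an open pair are set side by side, as above with capitals for bases in footprints of both libraries. Cox8a and Cox8b encode forms of the same subunit, and Cox6b2 is the stronger of the restricted genes open in both libraries, the other being Cox7a1.
Cox8a (chr19:7217617-7217866, minus strand): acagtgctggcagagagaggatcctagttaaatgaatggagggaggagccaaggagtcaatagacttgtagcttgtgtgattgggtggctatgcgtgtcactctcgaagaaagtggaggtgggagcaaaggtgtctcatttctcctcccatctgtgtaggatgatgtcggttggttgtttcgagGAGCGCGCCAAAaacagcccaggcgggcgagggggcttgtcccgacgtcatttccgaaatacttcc
Cox8b (chr7:140900447-140900696, minus strand): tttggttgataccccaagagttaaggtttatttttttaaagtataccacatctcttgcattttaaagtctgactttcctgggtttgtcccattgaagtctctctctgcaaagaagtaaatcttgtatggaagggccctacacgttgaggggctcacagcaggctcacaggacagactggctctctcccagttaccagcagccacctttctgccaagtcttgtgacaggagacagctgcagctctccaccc
Cox6b2 (chr7:4753095-4753225, minus strand): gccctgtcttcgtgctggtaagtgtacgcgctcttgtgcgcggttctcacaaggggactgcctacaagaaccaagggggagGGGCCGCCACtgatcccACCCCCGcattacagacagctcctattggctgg
The Cox8a stretch holds a protected run of 12 bases, whereas that of Cox8b holds no protected base. Stretches of Cox7a2 (225 bases) and Cox7a1 (223 bases), taken in the same way, also held no base protected in both libraries, although both genes were open. The Cox7a2 stretch (chr9:79759879-79760103) lay mostly outside its strongest peaks, which ended at 79759940 and 79759920. The whole windows held 5 and 6 footprints at Cox7a2 and 2 in each library at Cox7a1. These stretches therefore cannot show whether protected bases separate open from closed genes. The windows of Cox8a and Cox8b contain 56 and 18 CpGs. Cox6b2, with 36 CpGs in its window, had 17 bases protected in both libraries. Of the other restricted genes, Cox4i2 had 34 CpGs, Cox8c 28, Cox7b2 24, Cox7a1 19, Cox6a2 17 and Ndufa4l2 14, and the ubiquitous relatives had from 26 (Cox7b) to 131 (Cox4i1). The part of CpG content in the difference between the isoforms was not tested.

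The other 3 members without a shared promoter peak were Atp5f1, Ndufa13 and the second record of Atp5o. Atp5f1 (chromosome 3, 105942698 to 105960099), subunit b of the peripheral stalk, had a peak of 0.471 in replicate 1 and none in replicate 2. Yet 490 and 611 bases of its window carried a cut rate with a false discovery rate under 0.05, and a peak of 2.67 and 9.52 lay with its edge 579 and 599 bp from the annotated start. Ndufa13 (chromosome 8, 69894180 to 69902558), an accessory subunit of complex I, had 0.839 in replicate 1 and no peak in replicate 2, with 274 and 451 such bases. Upstream, peaks of 4.31 and 13.2 lay with their edges 583 and 623 bp from its annotated start. Downstream, peaks of 3.34 and 7.48 lay 778 and 758 bp from that start. The downstream peaks fell in the window of the RefSeq start, with which Ndufa13 was open in both libraries. Strong peaks thus stood just outside the window at both genes. The second record of Atp5o (chromosome 16, 91684398 to 91926982) had no peak and no such base, and the main record had 1.68 and 4.88. Over all genes closed in replicate 2, 97.8% had no such base, and 8 of 7575 had more than 400.

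Lists of genes that serve the chain were also open at most promoters. Of 15 mitochondrial regulators 13 had a promoter peak in both libraries. Nrf1 had 3.01 and 5.81, Gabpa 2.21 and 3.75, Yy1 4.65 and 10.6, and Esrra, an estrogen-related receptor, 4.50 and 14.7. Tfam, which packages mitochondrial DNA and takes part in starting its transcription, had 3.25 and 7.36, and Polg, the mitochondrial DNA polymerase, 6.23 and 10.9. Peaks at the coactivator Ppargc1a (0.519) and at Mterf1a (0.472) were present in replicate 2 alone. The other regulators, Gabpb1, Ppargc1b, Pprc1, Tfb1m, Tfb2m, Polrmt and Twnk, ran from 1.22 to 4.85 in replicate 1 and from 2.14 to 8.90 in replicate 2. Assembly factors of other names were open at 36 of 37, with Sdhaf1 as the exception. Citric acid cycle genes were open at 16 of 16 and genes of coenzyme Q synthesis at 11 of 11. Over all protein-coding genes the share was 58.9%, and it was 91.7% in CpG classes 6 to 10. The lists of this paragraph had medians of 51 to 66 CpGs in the window, against 42 over all genes, so their counts stood near the share of CpG-rich genes. Median values were 2.92 and 6.68, 2.91 and 6.90, and 2.63 and 5.44 for the assembly, citric acid cycle and coenzyme Q lists, beside 2.88 and 6.35 for the members.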

How the data were processed

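DNase-seq was measured in 2 libraries of 1 group, aligned to mm10 per the labels. The authors called peaks on each library alone, per the deposited description files. The deposited signal (peak column 7) was normalised by the authors with an unstated factor. The deposited false discovery rates of the cut rate (q-values) cover intervals under 0.05. Deposited footprints carry the value 0.01 on every line, so positions alone were used. Aligner, peak caller and footprint caller: not given in the sources used here.

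Promoter windows, isoform sets and motif matches were computed in Python 3.11.15 (numpy 2.4.6, pandas 2.3.3, scipy 1.17.1, pysam 0.24.0) and tested on simulated data. Counts over all members stand beside those over all 21670 protein-coding genes, motif counts beside all matched promoters, and no test was run, since 1 group of 2 libraries allows none. Depth in reads is unknown. Members, gene lists and sequences were chosen with earlier results of these data known.

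Genes were named by rule: isoform sets, the strongest and weakest open member of each complex, members lacking a peak in a library, the 3 largest and 3 smallest log2 differences, the 3 with the most footprints, core subunits, regulators, and up to 6 divergent pairs by strength, of which 1 is not reported here. Other genes named in the text, Timm8b, Mrpl36 and Gabpa as partners among them, were chosen after their values were seen. Alternatives changed the peak list, window, start, number of peaks, scaling, libraries, footprint extension and promoter sequence.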

Additional observations from a re-analysis of the deposited data

How the results depend on the processing

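The count of members open in both libraries ran from 86 to 91 over the stricter lists, windows of 250, 1000 and 2000 bp, the 5'-most start, equal numbers of peaks and each library alone. With RefSeq starts it was 73 of the 75 matched members, against 72 with GENCODE starts. The 1000 bp window and RefSeq starts were chosen after seeing the data. The stricter list left 1 restricted isoform gene and 4 cerebellar markers open and gave a median log2 difference of 1.14. The 2000 bp window gave 4 restricted genes and 2 germ cell genes, and the 5'-most start 0 germ cell genes and a log2 difference of 1.10. Equal numbers of peaks left 1 mural gene. Dividing by the median promoter, a change of unit, gave a median member value of 1.39 and a log2 difference of 0.062, with 50 of 87 members higher in replicate 2. The log2 differences of Ndufa1, Ndufc1 and Cox6c then reversed, to -0.863, -0.611 and -0.551, and that of Ndufa1 to -0.078 with peaks summed. Leaving out a replicate gave 0 to 1 muscle, 1 to 2 germ cell and 2 to 6 mural genes. With footprints not extended, 1 ETS and 0 YY1 promoters held a protected match, and with 10 bp the YY1 count was 4. In 500 bp on either side of every start, 19 member genes held the YY1 and 59 the SP and KLF sequence, in a longer stretch. With the 5'-most start the mean value of Atp5g2 was 1.86. Summing all peaks of a window raised the mean by over 1.5 times at 10 of 54 named genes, most at Atp5j (2.62 to 6.90). The cause of these shifts was not tested beyond what each setting changes by construction. No paired analysis was possible because the libraries form 1 group.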
